A study of Homo sapiens with 4 samples.

Results

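Semaphorins are guidance ligands that are either secreted or held in the membrane. They act through plexins, receptors whose inner domain switches off small GTPases of the Ras and Rap families, and the secreted class 3 ligands mostly need a neuropilin as co-receptor. In epithelial tumours these genes are known for roles in cell migration, in the spread of cells along the matrix and, through the growth factor VEGF, in blood vessel growth. The 10 genes described here are 4 semaphorins (SEMA3A, SEMA3C, SEMA4B, SEMA4C), both neuropilins (NRP1, NRP2) and 4 plexins (PLXNA1, PLXNB1, PLXNB2, PLXND1), out of 20323 gene rows. They were chosen by symbol, from a list drawn up with the footprint levels and group differences of these libraries known, so what follows describes them. Among rows of 1 symbol the row with the largest summed count was to be taken, but each symbol had a single row.

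The measurements are ribosome footprint counts from HCT-8, a human colorectal adenocarcinoma line, in a derivative resistant to the drug 5-fluorouracil (5-FU). One group received a negative control plasmid (NC) and the other a plasmid overexpressing METTL14 (OE), the RNA-binding partner in the enzyme that writes N6-methyladenosine on messages, with 2 libraries in each group. All 4 libraries came from cells given 100 ug/mL cycloheximide, a drug that holds ribosomes in place on messages, and all carried the 5-FU resistance. The labels do not say how the resistant cells were derived, whether they are 1 clone, what promoter the plasmid carries or how long after transfection cells were taken. A footprint count moves with the amount of a message as well as with its translation, and these were not separated here; nor can fewer cells of a kind and less of it per cell be told apart. Nothing says that the libraries of a group came from separate cultures, so p-values measure the spread between these libraries, which may be technical.

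Library totals lay between 7742274 counts in OE replicate 1 and 24392875 in OE replicate 2. METTL14 itself read 44.5 and 47.6 CPM (footprint counts scaled to library size) in the NC libraries against 448 and 91.2 CPM in the OE libraries. The plasmid's gene was thus higher in both OE libraries and very unevenly so. Even so, edgeR's quasi-likelihood test did not call METTL14 (Benjamini-Hochberg adjusted p = 0.734), while the DESeq2 Wald test did (adjusted p = 0.0495). A gene not called by edgeR here may therefore still differ. OE replicate 1 stood apart: when genes were split into 10 classes (deciles) by NC level, its median log2 difference from NC was 1.23 in the lowest decile and -1.08 in the highest, whereas the medians of OE replicate 2 lay between -0.12 and 0.07. Of 11 epithelial markers, 10 were above 1 CPM in every library, the exception being KRT20, and their summed level was 22090.3 and 21482.5 CPM in the NC libraries, with 6329 CPM for OE replicate 1 and 24906 CPM for the second OE library. None of 6 endothelial markers was above 1 CPM in every library and 3 of them (CDH5, KDR, TEK) were at 0 throughout, with sums of 0 to 0.476 CPM. Among 6 markers each, 2 neuronal (TUBB3, MAP2), 1 fibroblast (COL1A1) and 1 leukocyte marker (CD14) were above 1 CPM in every library, while RBFOX3, SNAP25 and CD3E were at 0. The neuronal sum, nearly all TUBB3, was 725 and 655 CPM in the NC libraries against 166 and 996 CPM in the OE libraries; the fibroblast sum was 1.40 to 5.23 CPM and the leukocyte sum 3.33 to 13.4 CPM. The part of these marker levels in the differences below was not tested.

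All 10 genes passed the filter on low counts. Over all 12560 genes tested, edgeR's quasi-likelihood test (Benjamini-Hochberg adjusted) called none of the 10, beside 0% of the table in either direction; 691 genes (5.50%) had an unadjusted p below 0.05, among them 1 of the 10, SEMA3A. The DESeq2 Wald test called 0 of the 10 where it called 0.0876% of genes higher and 0.111% lower, and edgeR with the replicate number as a block called 0 of the 10 where it called 0.104% higher and 0.0876% lower. For 6 of the 10 genes, both OE libraries lay below both NC libraries, against 20.4% of all genes tested, and for 0 of them above, against 19.9%. The 6 were SEMA3A, SEMA3C, SEMA4B, NRP1, NRP2 and PLXNB2. SEMA3C was in decile 7 of NC level, SEMA3A, SEMA4B and NRP2 in decile 8, and NRP1 and PLXNB2 in decile 10, the highest. All genes of these deciles had medians of -0.13, -0.33 and -1.08 in OE replicate 1. In OE replicate 2 the medians were 0.004, 0.008 and -0.08. The 20.4% covers genes of all levels, and the share within these deciles was not computed. With RLE size factors or the scaling of DESeq2, SEMA3C overlapped between the groups. Then 5 of the 10 were lower in both, where 2507 of 12560 genes were. Since the genes were chosen with such values in view, these counts describe the list and are no test of it. The median log2 fold change of the 10 was -0.26, beside 0.09 over all genes tested. Scaling by library totals alone put the median log2 fold change of all genes at 0.40. It left 2 of the 10 (SEMA3A and NRP1) lower in both OE libraries, against 11.8% of genes. It put 1 (PLXNA1) higher in both, against 30.2%.

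**Figure D1:**
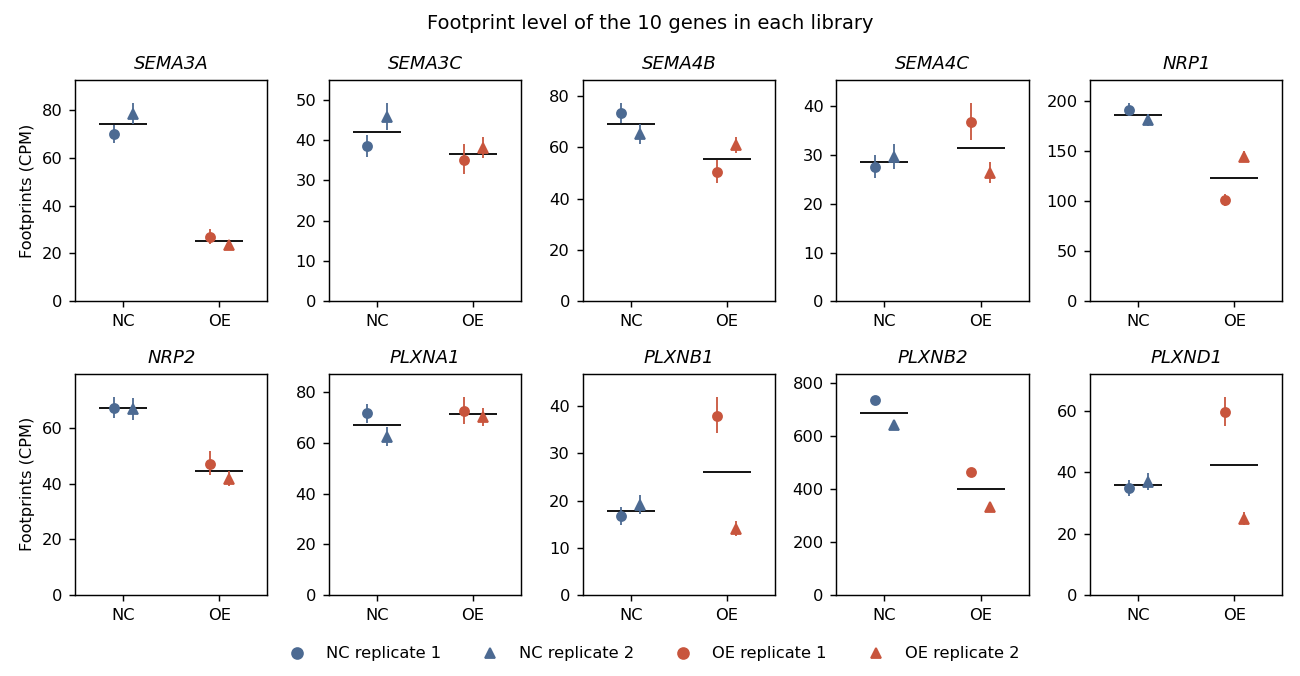
Footprint level (CPM, linear axes starting at 0) of each gene in NC and OE; circles are replicate 1, triangles replicate 2, bars exact Poisson 95% intervals (counting error only) and black lines group means of 2 libraries. SEMA3A, NRP1, NRP2 and PLXNB2 are clear of the NC libraries in both OE libraries, while PLXNB1 and PLXND1 lie above NC in OE replicate 1 and below it in OE replicate 2.

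SEMA3A, a secreted ligand that binds NRP1 and makes growth cones collapse in the developing nervous system, showed the largest difference among the 10 genes. Its level (ENSG00000075213) read 70.0 and 78.4 CPM in the NC libraries against 26.9 and 23.6 CPM in the OE libraries. The OE libraries lay close together and far below both NC libraries, with means of 74.2 ± 5.93 against 25.2 ± 2.39 CPM (SD, n = 2 each). These levels rest on 1359 and 1337 counts in NC and on 283 and 521 in OE, and the exact Poisson 95% intervals of the nearest libraries, 66.3 to 73.8 CPM in NC replicate 1 and 23.9 to 30.3 CPM in OE replicate 1, do not meet. The log2 fold change was -1.56 (SE 0.30), a ratio of 0.340, and by edgeR's quasi-likelihood test the unadjusted p was 0.00352 and the Benjamini-Hochberg adjusted p 0.734. The DESeq2 Wald test gave a log2 fold change of -1.55 with an adjusted p of 0.175, so SEMA3A passed neither test over all 4 libraries; over the fits of all 4 libraries the adjusted p lay between 0.175 and 0.837. In OE replicate 1 it lay at -1.45 from the NC mean, where genes of the same decile of NC level had a median of -0.33. In OE replicate 2 it lay at -1.65, with a median of 0.01 in that decile. SEMA3A was thus below the median of genes of like level in each OE library, and the spread of that decile was not computed.

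SEMA3C, a second secreted ligand that can act through either neuropilin, did not follow SEMA3A. It had 38.5 and 45.7 CPM in the NC libraries against 35.1 and 38.1 CPM in the OE libraries. Both OE libraries were below both NC libraries, but the gap between OE replicate 2 and NC replicate 1 was smaller than the gap within either group, and their Poisson intervals overlapped (35.5 to 40.7 against 35.8 to 41.3 CPM). The log2 fold change was -0.20 (SE 0.29; edgeR's quasi-likelihood adjusted p = 0.856), and scaled by totals alone it turned to 0.11; without NC replicate 1 it was -0.34 and without NC replicate 2 -0.11. Set against each other inside a library, where no scaling enters, SEMA3A held 64.5% and 63.2% of the counts of both ligands in NC and 43.4% and 38.2% in OE. The exact (Clopper-Pearson) 95% intervals were 61.1 to 66.6% over the NC libraries and 35.6 to 47.3% over the OE libraries, and cover counting error only. The share was thus lower in both OE libraries by more than either pair of replicates differed; with 2 libraries a group an exact permutation test could not reach the threshold, and none was run.

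Of the membrane-bound class 4 ligands, SEMA4B and SEMA4C showed small differences. SEMA4B had 73.2 and 65.1 CPM in the NC libraries against 50.4 and 60.9 CPM in the OE libraries. The OE values were lower in both libraries, with Poisson intervals of OE replicate 2 (57.7 to 64.2 CPM) and NC replicate 2 (61.4 to 69.1 CPM) that overlapped, and the log2 fold change was -0.31 (SE 0.31; edgeR's quasi-likelihood adjusted p = 0.789), or -0.0088 scaled by totals alone, -0.18 without OE replicate 1 and -0.50 without OE replicate 2. SEMA4C, which signals through PLXNB2, had 27.6 and 29.7 CPM in the NC libraries against 36.7 and 26.3 CPM in the OE libraries. Its OE libraries fell on either side of NC, with a log2 fold change of 0.14 (SE 0.32) that was -0.12 without OE replicate 1. The share of SEMA4B in the counts of both was 72.7% and 68.7% in NC, with 57.9% for OE replicate 1 and 69.8% for OE replicate 2, so only OE replicate 1 stood outside the NC range.

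The neuropilins are membrane proteins with a short inner tail that bind class 3 semaphorins and VEGF and lend specificity to plexins and VEGF receptors. NRP1 had 191.5 and 181 CPM in the NC libraries against 101 and 145 CPM in the OE libraries. Both OE libraries were below both NC libraries, at 123 ± 30.9 against 186 ± 7.34 CPM (SD, n = 2 each), and the OE libraries differed from each other by more than OE replicate 2 differed from NC. The log2 fold change was -0.60 (SE 0.37; edgeR's quasi-likelihood adjusted p = 0.734), or -0.36 without OE replicate 1, -0.92 without OE replicate 2 and -0.32 scaled by totals alone. NRP1 belongs to the decile with the highest NC level, which had a median of -1.08 in OE replicate 1, where NRP1 lay at -0.88; in OE replicate 2 the values were -0.08 for the decile and -0.36 for NRP1. NRP2, the co-receptor preferred by SEMA3F, was the more even of the pair.

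NRP2 had 67.4 and 66.9 CPM in the NC libraries against 47.3 and 41.7 CPM in the OE libraries, with means of 67.2 ± 0.294 and 44.5 ± 3.94 CPM (SD, n = 2 each). The NC libraries were nearly equal and both OE libraries were well below them. The log2 fold change was -0.59 (SE 0.29; edgeR's quasi-likelihood adjusted p = 0.734), a ratio of 0.663. Scaled by library totals alone, NRP2 read 59.9 and 61.0 CPM for NC and 64.2 and 37.8 CPM for OE, so the groups then overlapped, with a log2 fold change of -0.25. Its differences from the NC mean, -0.50 in OE replicate 1 and -0.69 in OE replicate 2, compare with decile medians of -0.33 and 0.01. Within libraries, NRP1 held 74.0% and 73.0% of the counts of both neuropilins in NC, with 68.1% for OE replicate 1 and 77.6% for OE replicate 2. The share of NRP1 was therefore below NC in one OE library and above it in the other, unlike that of SEMA3A among the secreted ligands.

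PLXNB2, the receptor for class 4 semaphorins and for angiogenin on epithelial cells, had 734 and 643 CPM in the NC libraries against 466 and 332 CPM in the OE libraries. Both OE libraries were below both NC libraries, at 399 ± 94.8 against 689 ± 64.2 CPM (SD, n = 2 each), and the log2 fold change was -0.79 (SE 0.48; edgeR's quasi-likelihood adjusted p = 0.734). The libraries differed in how PLXNB2 compared with its peers in the top decile. In OE replicate 1 it lay at -0.56, above the decile's median of -1.08, and in OE replicate 2 it lay at -1.05, far below the decile's median of -0.08. Scaled by library totals alone it read 652 and 586 CPM for NC and 632 and 301 CPM for OE, so the groups then overlapped, with a log2 fold change of -0.41.

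PLXNA1, a receptor that joins neuropilins to transmit class 3 signals, overlapped between the groups. It read 71.7 and 62.6 CPM in the NC libraries against 72.8 and 70.4 CPM in the OE libraries, a log2 fold change of 0.09 (SE 0.30; edgeR's quasi-likelihood adjusted p = 0.936). The sign depended on the libraries used, since the value was -0.039 without NC replicate 2. Scaled by totals alone, PLXNA1 read 63.7 and 57.1 CPM for NC and 98.7 and 63.8 CPM for OE, a log2 fold change of 0.43, and both OE libraries were then above NC, the nearer one by a margin far smaller than the gap between the NC libraries. Inside each library, PLXNA1 held 8.90% and 8.86% of the counts of PLXNA1 and PLXNB2 together in NC, with 13.5% for OE replicate 1 and 17.5% for OE replicate 2. The exact 95% intervals were 8.36 to 9.39% over the NC libraries and 12.6 to 18.3% over the OE libraries. This share needs no scaling by library size, and it was higher in both OE libraries by more than the spread within either group. It can still move with the level of the genes. In OE replicate 1 the decile of PLXNA1 had a median of -0.33 and that of PLXNB2 -1.08, so genes of these levels moved apart there too. In OE replicate 2 the medians were 0.01 and -0.08. The part of level in the share was not tested.

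PLXNB1, the SEMA4D receptor, and PLXND1, which takes SEMA3E and class 4 ligands, split by OE library. PLXNB1 had 16.7 and 19.1 CPM in the NC libraries against 38.0 and 13.97 CPM in the OE libraries. OE replicate 1 was above and OE replicate 2 below both NC libraries, so the log2 fold change of 0.53 (SE 0.53) turned to -0.35 without OE replicate 1 and was 1.05 without OE replicate 2. PLXND1 had 34.8 and 36.9 CPM in the NC libraries against 59.6 and 24.9 CPM in the OE libraries, with the same split, and its log2 fold change of 0.23 (SE 0.48) became -0.53 and 0.69 without OE replicates 1 and 2. Their deciles had medians of 0.30 and -0.13 in OE replicate 1, where PLXNB1 and PLXND1 lay at 1.09 and 0.73. Relative to PLXNB2, however, both were higher in each OE library. PLXNB2 held 97.8% and 97.1% of the counts of PLXNB1 and PLXNB2 in NC and 92.5% and 96.0% in OE. PLXND1 held 4.53% and 5.43% of the counts of PLXND1 and PLXNB2 in NC and 11.3% and 6.97% in OE. Both shares in OE replicate 2 were nearer to NC than to OE replicate 1. The decile of PLXNB2 had a median of -1.08 in OE replicate 1, so genes of these levels moved apart there too. In OE replicate 2 PLXNB1 and PLXND1 lay at -0.35 and -0.53 from the NC mean, and PLXNB2 lay lower, at -1.05. The part of level in these shares was not tested.

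**Figure D2:**
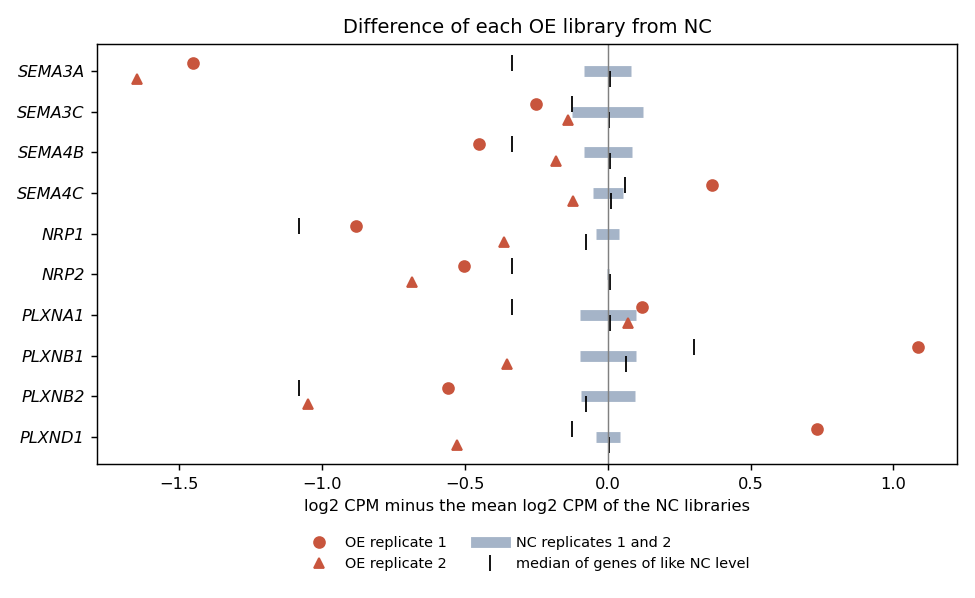
Difference of log2 CPM from the NC mean for each gene in OE replicate 1 (circles) and OE replicate 2 (triangles); grey-blue bars span the NC replicates, and black ticks give the median of all genes in the same decile of NC level, beside the library they belong to. SEMA3A lies at -1.45 and -1.65, left of both its ticks, whereas PLXNB2 lies right of its tick in OE replicate 1 and left of it in OE replicate 2.

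**Figure D3:**
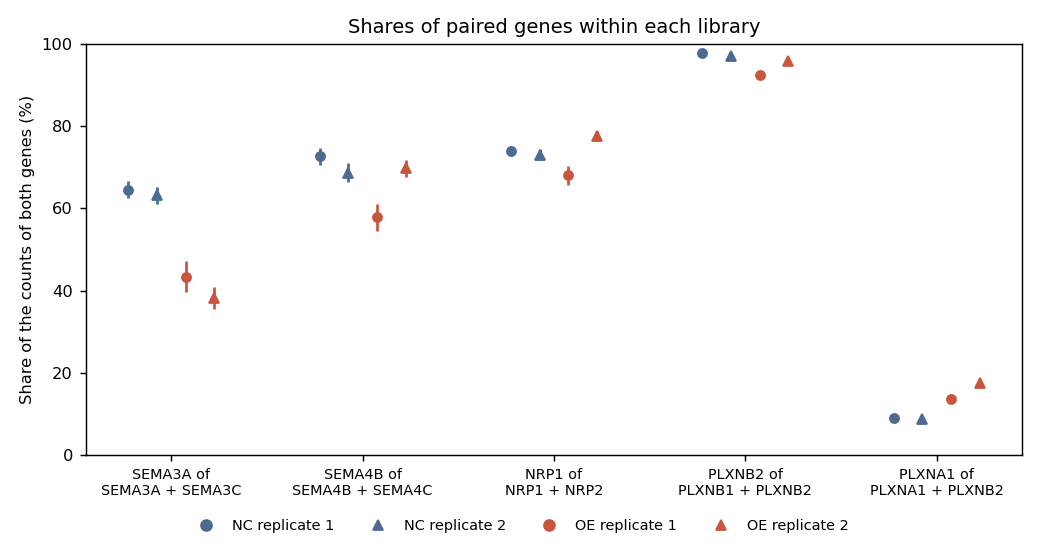
Share (%) that the first-named gene holds of the counts of both genes, in each library, with exact 95% binomial intervals. SEMA3A's share is 64.5% and 63.2% in NC and 43.4% and 38.2% in OE, and PLXNA1's share against PLXNB2 is 8.90% and 8.86% in NC and 13.5% and 17.5% in OE, while NRP1's share lies below NC in OE replicate 1 and above it in OE replicate 2.

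Leaving out a library decided which genes were called. Without OE replicate 1, edgeR's quasi-likelihood test (Benjamini-Hochberg adjusted) called SEMA3A (adjusted p = 7.39e-10), NRP2 (0.00154), PLXNB2 (2.40e-07) and PLXND1 (0.0145) lower, 4 of 10 where 17.3% of all genes were called lower, and none higher, where 16.8% were. Without OE replicate 2 it called 5 genes lower (SEMA3A, SEMA4B, NRP1, NRP2, PLXNB2), where 30.8% of all genes were, and 2 higher (PLXNB1, PLXND1), where 30.1% were. These fits have 1 OE library and take its spread to be that of the NC pair, which was much narrower (the SD of the log2 difference between replicates was 0.47 in NC and 1.30 in OE). SEMA3A, NRP2 and PLXNB2 were lower under both, and PLXND1 was called in opposite directions.

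For 8 of the 10 genes a RefSeq table of build GRCh38.p14, with 12 annotated starts in all, gave the bases before the start of transcription; SEMA3A and NRP1 were not among them. The 250 bases are shown for NRP2, PLXNB2 and PLXNA1, since a footprint count also moves with the amount of message. With TMM scaling, NRP2 and PLXNB2 were lower in both OE libraries and PLXNA1 overlapped between the groups. By totals alone, NRP2 and PLXNB2 overlapped and PLXNA1 was higher in both OE libraries. Capitals mark the GC box, the letters GGGCGG on either strand (CCGCCC when read on the strand shown), where Sp1-type factors can bind.
NRP2, chr2:205682251-205682500, plus strand: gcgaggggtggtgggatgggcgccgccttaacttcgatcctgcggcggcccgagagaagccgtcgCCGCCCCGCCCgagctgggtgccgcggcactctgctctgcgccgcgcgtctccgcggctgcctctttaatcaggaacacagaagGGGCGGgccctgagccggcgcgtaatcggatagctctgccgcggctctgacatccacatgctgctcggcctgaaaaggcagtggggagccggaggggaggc
PLXNB2, chr22:50301670-50301919, minus strand: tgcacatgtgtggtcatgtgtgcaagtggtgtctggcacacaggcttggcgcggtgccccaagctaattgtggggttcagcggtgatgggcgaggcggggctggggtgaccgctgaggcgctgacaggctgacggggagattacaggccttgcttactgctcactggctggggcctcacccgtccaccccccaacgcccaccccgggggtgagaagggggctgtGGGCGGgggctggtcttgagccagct
PLXNA1, chr3:126982865-126983114, plus strand: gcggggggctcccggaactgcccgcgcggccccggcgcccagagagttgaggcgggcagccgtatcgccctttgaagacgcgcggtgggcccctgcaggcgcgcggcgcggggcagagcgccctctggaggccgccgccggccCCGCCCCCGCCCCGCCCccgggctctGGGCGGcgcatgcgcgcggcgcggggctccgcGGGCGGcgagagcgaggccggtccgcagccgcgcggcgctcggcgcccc
The GC box occurred 3 times in the NRP2 window, 2 of them sharing a base, 1 time in the PLXNB2 window and 5 times in the PLXNA1 window. Of 35116 windows of this length, 42.6% held it at least once and 24.3% held it 2 or more times. The share of G and C was 70% in the NRP2 window, 66.4% in the PLXNB2 window and 84.4% in the PLXNA1 window. The TATA box (TATAAA) and the E-box (CACGTG), searched on both strands, had 0 matches in all 12 windows, against 10.7% and 6.34% of all windows. A match is a run of letters and says nothing of whether a factor binds there.

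The other semaphorins and plexins gave the family background. Of 21 further genes, 6 had no count in any library (SEMA3D, SEMA3E, SEMA4A, SEMA5B, SEMA6D and PLXNA4) and 14 were tested; SEMA6A had a CPM of 2.47 in OE replicate 1 and at most 0.117 elsewhere. None passed edgeR's test (0% of all genes did), 6 were lower in both OE libraries (SEMA5A, SEMA4D, SEMA7A, PLXNA2, PLXNB3 and SEMA6B), where 20.4% of all genes were, and 0 were higher in both, where 19.9% were. SEMA6B was nearly equal to NC in OE replicate 1, at 10.764 and 10.962 CPM in the NC libraries against 10.756 and 5.1996 CPM in the OE libraries. SEMA5A, a membrane ligand with thrombospondin repeats, had 82.8 and 73.4 CPM in the NC libraries against 44.6 and 45.3 CPM in the OE libraries, a log2 fold change of -0.80 (SE 0.30). SEMA4D, the ligand of PLXNB1, had 65.8 and 61.3 CPM in the NC libraries against 40.5 and 32.1 CPM in the OE libraries. These were the other members of the family with an unadjusted p below 0.05 (2 of the 14, beside 5.50% of all genes). SEMA7A, which is anchored in the membrane by a lipid and binds integrins, had 24.8 and 20.8 CPM in the NC libraries against 4.57 and 14.7 CPM in the OE libraries. SEMA3B overlapped between the groups, at 183 and 157 CPM in the NC libraries against 184 and 161 CPM in the OE libraries. SEMA3F, SEMA4F, SEMA6C and PLXNA3 were, like PLXND1, above both NC libraries in OE replicate 1 and below both in OE replicate 2. SEMA4G was above both in OE replicate 1, and its 26.3 CPM in OE replicate 2 lay between the NC values of 24.8 and 30.3 CPM. SEMA3G and PLXNC1 also overlapped, PLXNC1 at 0.117 to 1.43 CPM.

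Counted over all 24 tested semaphorins, plexins and neuropilins, both OE libraries lay below NC for 12 and above NC for 0, beside 20.4% and 19.9% of all genes. The 24 include the 10 genes, which were chosen with such values in view. The counts therefore describe the family and are no test of it. Of the 12, 6 were among the 10 genes. In OE replicate 2 alone, 19 of the 24 (9 of them among the 10 genes) were below both NC libraries and 0 above both. All genes tested had 42.5% and 42.8% there. In OE replicate 1 alone, 13 were below and 11 above, where all genes had 45.5% and 46.7%. The median difference from the NC mean was -0.51 for OE replicate 2 and -0.11 for OE replicate 1, beside -0.00438 and 0.03 over all genes tested. The split in OE replicate 1 depends on the scaling. By totals alone, 5 of the 24 were below both NC libraries there and 17 above, where all genes had 25.1% and 68.4%. For OE replicate 2 the counts were 18 and 1, beside 41.8% and 43.4%. Both OE libraries lay below NC for 5 and above it for 1, beside 11.8% and 30.2% of all genes.

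**Figure D4:**
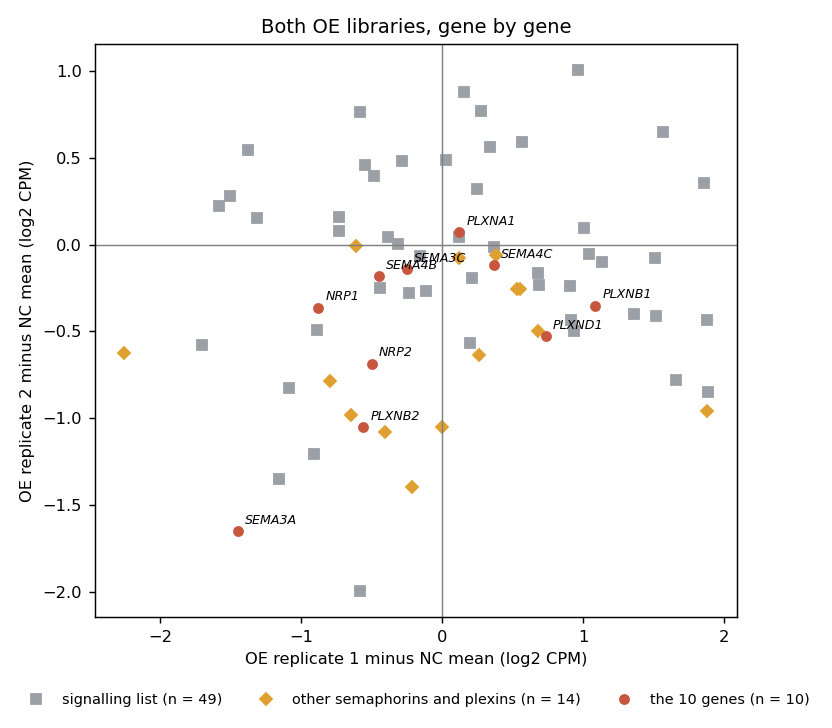
Difference of log2 CPM from the NC mean in OE replicate 1 (horizontal) and OE replicate 2 (vertical) for the 10 genes, 14 other tested semaphorins and plexins and 49 tested genes of the signalling list. The 10 genes were chosen with such values in view. With TMM scaling the family lies almost wholly below 0 on the vertical axis and on both sides of 0 on the horizontal axis, which by totals alone becomes 17 of 24 above both NC libraries, with SEMA3A at the lower left, while the signalling genes fill all 4 quadrants.

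The signalling list held 56 genes that process semaphorins, share receptors with them or act after plexins, of which 49 were tested. None passed edgeR's quasi-likelihood test over all genes, both OE libraries lay higher for 9 and lower for 10, shares of 18.4% and 20.4% that are close to those of all genes (19.9% and 20.4%). The median log2 fold change was 0.18, beside 0.09 over all genes tested. Scaled by totals alone, 15 were higher in both and 5 lower, where 30.2% and 11.8% of all genes were.

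Among the signalling genes lower in both OE libraries, FLT1, a VEGF receptor that shares ligands with neuropilins, had 39.5 and 41.0 CPM in the NC libraries against 21.3 and 17.4 CPM in the OE libraries, a log2 fold change of -1.06 (SE 0.29). FLNA, the actin cross-linker filamin A, had 1179.8 and 1168 CPM in the NC libraries against 525 and 460 CPM in the OE libraries. FLNA lay at -1.16 and -1.35 from the NC mean in OE replicates 1 and 2. Its decile of NC level had medians of -1.08 and -0.08 there. L1CAM, an adhesion molecule that binds NRP1, had 35.1 and 24.7 CPM in the NC libraries against 8.85 and 19.7 CPM in the OE libraries. FLT1, FLNA and L1CAM each had an edgeR quasi-likelihood adjusted p of 0.734. Among those higher in both, GSK3A, a kinase that phosphorylates collapsin response mediator proteins, had 19.1 and 17.0 CPM in the NC libraries against 35.0 and 36.2 CPM in the OE libraries, taken from the largest of the 3 rows with that symbol. PIP5K1C, a lipid kinase of focal adhesions, had 16.1 and 13.95 CPM in the NC libraries against 44.6 and 23.6 CPM in the OE libraries. VEGFB, a ligand of FLT1 and NRP1, had 5.97 and 4.51 CPM in the NC libraries against 19.0 and 6.69 CPM in the OE libraries. These 6 genes had the smallest p on their side.

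Of 7 genes of the list that process, bind or signal with the 10, values are given next. Of the nucleotide exchange factors ARHGEF11 and ARHGEF12, which bind B plexins and activate RhoA, ARHGEF11 had 26.7 and 25.5 CPM in the NC libraries against 74.4 and 24.8 CPM in the OE libraries, and ARHGEF12 had 35.7 and 36.5 CPM against 114 and 21.0 CPM. Both were above NC in OE replicate 1; in OE replicate 2 ARHGEF12 was below both NC libraries, and ARHGEF11 was close to them. VEGFA, the main angiogenic ligand of NRP1, had 12.0 and 12.1 CPM in the NC libraries against 44.5 and 8.91 CPM in the OE libraries. GIPC1, the adaptor that binds the tail of NRP1, went the other way, with 99.2 and 99.8 CPM in the NC libraries against 68.0 and 137 CPM in the OE libraries. MET, a receptor kinase that pairs with B plexins, had 267 and 271 CPM in the NC libraries against 206 and 277 CPM in the OE libraries, and FURIN, the protease that cuts class 3 semaphorins, had 26.5 and 23.0 CPM in the NC libraries against 28.2 and 16.6 CPM in the OE libraries. ERBB2, another kinase partner of PLXNB1, was the one of these 7 that was lower in both OE libraries, with 147 and 133 CPM in the NC libraries against 75.6 and 99.5 CPM in the OE libraries. Of the 49 tested genes, 16 were above the NC mean in OE replicate 1 and below it in OE replicate 2, and 12 the reverse, against 25.6% and 24.0% of all genes tested. The other receptors for VEGF, KDR and FLT4, had at most 1 count in any library, as did VEGFC.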

How the data were processed

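The authors deposited 1 table per library that holds estimated counts for Ensembl genes, in a count column per the file headers. A fractional part was found in 13.8% to 14.7% of entries, so they were rounded to whole numbers before testing. Tools named in the submitters' processing notes are fastp, Bowtie2, HISAT2, StringTie, RSEM with build hg18; for their versions and order, the annotation, the strand setting and rRNA removal, the entry is: not given in the sources used here. As strand and multi-read settings are unknown, overlapping and antisense genes cannot be told apart.

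In R 4.3.3 with edgeR 4.0.16, 12560 genes were kept by filterByExpr (minimum count 10, total 15, proportion 0.7), scaled by TMM (factors 0.889 and 0.912 for NC, 1.36 and 0.907 for OE) and tested by quasi-likelihood with the group as the only term, with p-values adjusted by Benjamini-Hochberg over the whole table at 0.05 (common dispersion 0.179). CPM are counts over the TMM-scaled totals, and log2 CPM used a prior count of 2. A count of 0 allows up to 3 counts, or 0.136 to 0.286 CPM. The steps were tested on simulated data. Alternatives were DESeq2 1.42.0, RLE or total scaling, 2 other filters, a replicate block, summed rows of 1 symbol and leaving out each library.

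Neither pair of replicates is a repeated library: chi-square per degree of freedom was 13.0 within NC and 330.1 within OE. The members and lists were chosen with earlier results of these data known. Named were all 10 members, the other family genes, 3 signalling genes with the smallest p on each side and 7 partners. Coding lengths were not used here, so the planned footprint density per kilobase was not computed and levels are not ranked between genes. Of the marker lists, the 5 cell types are given by their sums.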

Additional observations from a re-analysis of the deposited data

How the results depend on the processing

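Scaled by library totals alone, the median log2 fold change of the 10 genes turned to 0.053 and SEMA3C to 0.11, members lower and higher in both OE libraries numbered 2 and 1, and signalling genes 5 and 15 of 49, where all genes had 11.8% and 30.2%. Genes past the threshold numbered 25 by the DESeq2 Wald test (11 higher, 0.0876%; 14 lower, 0.111%), 24 with the replicate block and 29 with a crossed block, against 0 by edgeR's quasi-likelihood test (691 at an unadjusted p below 0.05); none was one of the 10 genes. The crossed block was added after seeing the data, since deviations of same-numbered libraries correlated at -0.10; the labels do not pair the libraries. Leaving out each library in turn gave 7 to 7969 genes past the threshold, 0 to 7 members, 0 to 33 signalling genes, 0 to 3 members higher and 6 to 9 lower in both (or the remaining) OE libraries, 10 to 25 signalling genes higher and 10 to 23 lower, and medians of -0.40 to -0.27. Of all genes, 5437 of 12711 were higher and 5391 lower without OE replicate 1, where signalling genes numbered 22 and 23. Without OE replicate 2 it was 6136 and 5951 of 13079, with 25 and 22 signalling genes. Without NC replicate 1 it was 3367 and 3234 of 13038, and without NC replicate 2 3327 and 3415 of 13100. Single genes ranged from -1.65 to -1.50 for SEMA3A, -0.34 to -0.11 for SEMA3C, -0.50 to -0.18 for SEMA4B, -0.92 to -0.36 for NRP1, -0.68 to -0.55 for NRP2, -1.05 to -0.60 for PLXNB2, -0.12 to 0.32 for SEMA4C, -0.039 to 0.18 for PLXNA1, -0.35 to 1.05 for PLXNB1 and -0.53 to 0.69 for PLXND1. Reversals were PLXNA1 without NC replicate 2 (-0.039) and SEMA4C (-0.12), PLXNB1 (-0.35) and PLXND1 (-0.53) without OE replicate 1. The cause was not tested. The median of the 10 genes was -0.25 by DESeq2 and with RLE size factors, -0.28 with no filter and -0.23 with at least 50 counts in 2 libraries, against -0.26; the spread these were judged against was chosen after seeing the values. It is the median over the 10 genes of the SD between OE libraries (0.27), within which all 4 lie, and it replaced the SD between the medians of both OE libraries, by which all 4 had counted as different. Among the values of single genes under an alternative, 105 kept direction and side of the threshold, 11 passed it and 5 reversed; 1 (PLXND1 without OE replicate 1) did both. The planned footprint densities per coding length and their alternatives were not run. Depth limits the lowest genes, since a count of 0 allows 0.136 to 0.286 CPM.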
